A study of Mus musculus with 12 samples.

Results

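Keratin genes were followed in mouse embryonic stem cells of the line W9.5 through a stepwise differentiation toward pancreatic progenitors. The members are all probes on the array whose annotated gene symbol is Krt followed by digits alone: 46 probes for 41 genes, of 15967 genes on the array. Keratins whose symbols end in a letter (Krt6a, Krt6b, Krt33a and Krt33b) fall outside this definition. The data are 12 Illumina BeadChip arrays, 3 for each of days 0, 4, 8 and 15. All 12 arrays carry the same label for cell line and treatment, which names activin A, then retinoid acid, then retinoid acid with fibroblast growth factor; it names no day for any agent, and day 0 has the same text. W9.5 is 1 line, and nothing in the labels says that the replicates were separate cultures, so p-values measure only the spread between these arrays. Between 11253 and 12554 of 24613 probes were detected per array (detection p under 0.05), and 8 of 8 stem cell markers, Pou5f1, Sox2 and Nanog among them, were detected on every array.

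Keratins are the intermediate filament proteins of epithelial cells. A filament forms only when an acidic type I keratin pairs with a basic type II keratin, so cells make them in matched sets. Single-layered (simple) epithelia such as trophectoderm, endoderm, gut and ducts make Krt8 and Krt18, often with Krt7 and Krt19, and some also make Krt20. The basal layer of stratified epithelia makes Krt5 with Krt14, and Krt15. Layers above it change to other pairs such as Krt1 with Krt10 in epidermis or Krt4 with Krt13 in mucosa, and hair follicles have their own large set.

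Most keratins gave no signal in these cells at any time. Of the 46 keratin probes, 29 were detected on 0 of 12 arrays (63.0%), against 39.6% of all probes on the array. A further 6 were detected on 1 or 2 arrays (5.88% of all probes) and 11 on at least 3 (54.5% of all probes). Counted by gene, 25 of 41 keratins had no probe detected on any array, 5 had a probe detected on only 1 or 2 arrays, and 11 had a probe detected on at least 3 arrays, the minimum for a gene to be tested (60.5% of all genes reached it). The genes detected nowhere were Krt1, Krt2, Krt4, Krt9, Krt76, Krt78 and Krt79 of stratified epithelia, the wound keratin Krt16, the hair follicle sheath keratins Krt25, Krt26, Krt27, Krt71, Krt72 and Krt75, the hair keratins Krt34, Krt35, Krt39, Krt82, Krt84 and Krt86, and Krt24, Krt80, Krt88, Krt90 and Krt222. In the authors' value table these 29 probes lay between 5.42 and 6.38 on the log2 scale, around and below the array medians of 6.27 to 6.30. A probe below detection bounds the signal of that probe and does not show that the gene is silent.

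The detected keratins divided by class. Of 5 simple epithelial keratins 4 were tested and 0 were undetected throughout; Krt20, a keratin of gut and bladder lining, was detected on 1 day 4 array. Of 3 basal keratins Krt14 and Krt15 were tested and Krt5 was detected on 2 day 15 arrays. Of 11 stratified and suprabasal keratins 3 were tested (Krt10, Krt12 and Krt77), 7 were never detected, and Krt13 was detected on 2 day 15 arrays. Among 14 hair and hair follicle sheath keratins 0 were tested, with Krt28 and Krt31 detected on 1 array each.

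**Figure D1:**
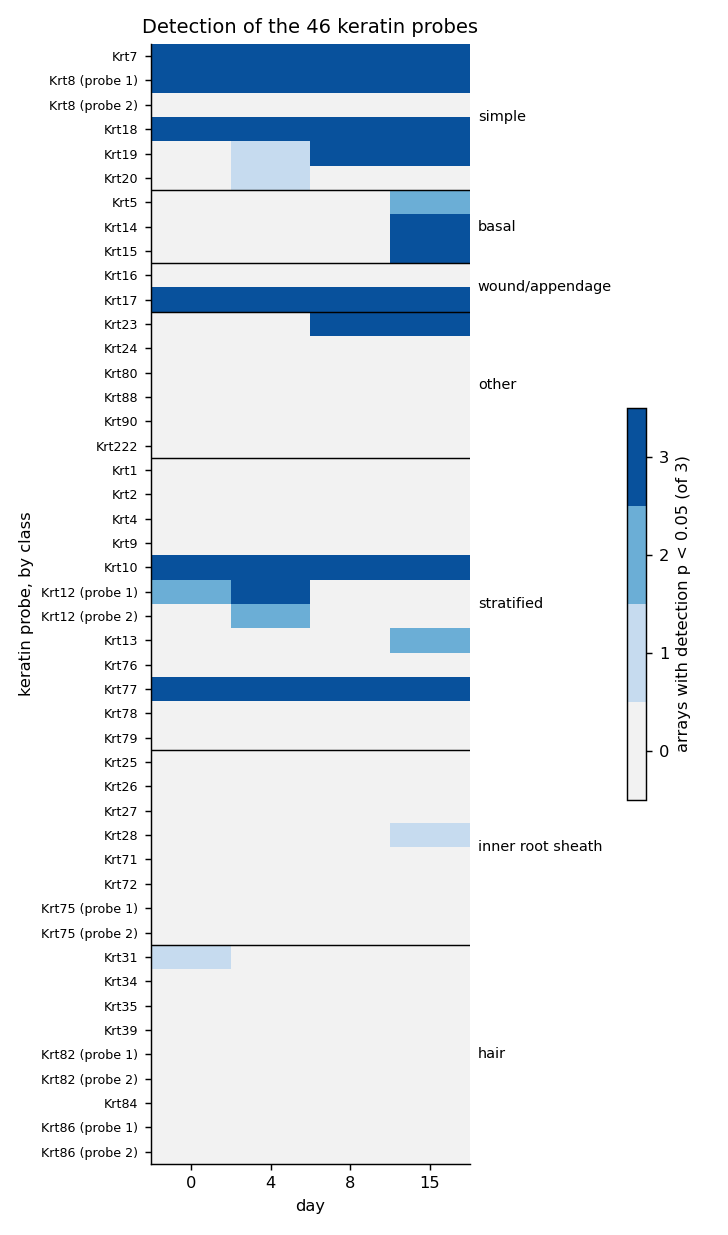
Number of arrays (0 to 3, shade) on which each of the 46 keratin probes had a detection p under 0.05 on days 0, 4, 8 and 15, with probes grouped by class. Krt7, 1 of 2 Krt8 probes, Krt18, Krt10, Krt17 and Krt77 are at 3 on every day, Krt14 and Krt15 fill on day 15 alone, and the hair classes are empty except for 1 array each for Krt28 and Krt31.

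The number of detected keratin probes was 7 ± 1 per array (SD, n = 3) on day 0, 8.33 ± 1.15 on day 4, 8 on each day 8 array and 11.7 ± 0.58 on day 15. Day 15 arrays had 4.67 more than day 0 arrays (p = 0.1 in an exact two-sided permutation test, which cannot go lower with 3 arrays a group). Over the same days the share of all probes detected went from 47.1% to 50.4%.

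Levels below are log2 intensities after background correction and quantile normalization (limma's neqc), on which the detection floor, the lowest signal of any detected probe, averaged between 5.07 and 5.24 by day. Changes are differences between day means on that log2 scale, each with its standard error from a limma fit, and a change was called at a Benjamini-Hochberg adjusted p under 0.05 over 9657 tested genes. Where a gene was undetected on every array of its dimmer day, its fold is a lower bound against the floor. In RNA from whole cultures, more cells expressing a keratin and more RNA per cell cannot be told apart.

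Krt8 and Krt18, the type II and type I partners of simple epithelia, were already present in undifferentiated cells and rose in both of the first steps. Krt8 lay at 8.93, 8.94 and 9.11 on the day 0 arrays, at 9.84, 9.69 and 9.96 on day 4, at 12.49, 12.54 and 12.47 on day 8, and at 12.57, 12.50 and 12.35 on day 15. The arrays of days 0, 4 and 8 did not overlap, and those of days 8 and 15 did. Krt8 rose by 0.84 ± 0.11 from day 0 to day 4 (SE, n = 3 arrays per day, adjusted p = 1.59e-05) and by 2.67 ± 0.11 from day 4 to day 8 (adjusted p = 2.52e-12). From day 8 to day 15 the change was -0.02 ± 0.11 and was not called (adjusted p = 0.909).

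Krt18 gained more than Krt8 in the first interval. Its levels were 6.78, 6.44 and 6.70 on day 0, 9.06, 8.97 and 8.47 on day 4, at 11.21, 11.20 and 11.04 on day 8, and at 11.02, 10.59 and 10.49 on day 15. Its log2 change was 2.19 ± 0.17 by day 4 (adjusted p = 2.88e-08) and 2.32 ± 0.17 from day 4 to day 8 (adjusted p = 3.46e-09). All 3 day 15 arrays lay below all 3 day 8 arrays, but this difference (-0.45 ± 0.17) was not called (adjusted p = 0.0694). It was called when the replicate number was included as a block (adjusted p = 0.0147), under median scaling (0.0252), with the arrays of these days alone (0.0386), without the first day 15 array, replicate 1 (0.0225), and without replicate 3 of day 4 (0.0442). The adjusted p lay between 0.0147 and 0.309 across the alternatives tried.

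A second Krt8 probe was detected on no array, with day means between 4.63 and 4.71, while the first was bright throughout. Both carry the same transcript accession in the annotation. Probe sequences were not used here, so which Krt8 transcripts each probe reads was not tested.

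Krt8 and Krt18 are next to each other in the mouse genome with no coding gene between them, and Krt18 is the exception among type I keratins in lying beside the type II genes. The 250 bases before the annotated starts of Krt8, Krt18 and Krt7 are shown because these simple keratins rose together from day 4 to day 8. They come from RefSeq (GRCm38.p6), at chr15:102004343-102004592 on the minus strand, chr15:102027966-102028215 on the plus strand and chr15:101412153-101412402 on the plus strand. Capitals mark matches on either strand to AGGTCA, the core motif bound by nuclear receptors including those for retinoic acid, and to GGGCGG, the GC box bound by Sp1.
Krt8: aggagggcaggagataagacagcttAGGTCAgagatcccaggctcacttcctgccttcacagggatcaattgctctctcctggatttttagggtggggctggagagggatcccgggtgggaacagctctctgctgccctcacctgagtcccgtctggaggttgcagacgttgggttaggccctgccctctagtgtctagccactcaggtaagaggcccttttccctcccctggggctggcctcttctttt
Krt18: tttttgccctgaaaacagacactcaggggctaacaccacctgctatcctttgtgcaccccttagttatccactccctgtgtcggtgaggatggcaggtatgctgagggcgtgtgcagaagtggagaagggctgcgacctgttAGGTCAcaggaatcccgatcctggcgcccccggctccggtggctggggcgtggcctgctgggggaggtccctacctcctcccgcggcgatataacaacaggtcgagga
Krt7: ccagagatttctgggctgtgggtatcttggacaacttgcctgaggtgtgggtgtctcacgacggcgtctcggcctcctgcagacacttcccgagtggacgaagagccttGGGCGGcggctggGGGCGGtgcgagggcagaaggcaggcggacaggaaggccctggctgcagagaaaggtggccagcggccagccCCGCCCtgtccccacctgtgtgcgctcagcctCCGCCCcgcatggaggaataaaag
These motifs, with TATAAA (the TATA box) and TGANTCA (the AP-1 site), were chosen after the promoters had been read and were searched on both strands from 250 bases before to 50 after each start. AGGTCA lay 225 bases before the start of Krt8, 108 before that of Krt18, and after the start of Krt7, outside the stretch shown. It was present in 9 of 31 keratin windows (30 of 41 genes had an entry) and in 16.3% of all 32851 windows. Of 8 windows of tested keratins 3 held it, those of Krt7, Krt8 and Krt18, and the Krt23 window did not. TATAAA was present in 14 of 31 and in 13.6% of all, and in Krt8 it spans the annotated start. GGGCGG was present in 2 of 31 keratin windows against 35.7% of all; Krt7 has 4 matches within the stretch shown. TGANTCA was present in 2 of 31 against 7.81%.

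Krt7 and Krt19, which join Krt8 and Krt18 in ducts and other simple epithelia, rose mainly in the second step. Krt7, a type II keratin, lay at 5.61, 6.20 and 5.75 on day 0, at 6.29, 6.67 and 6.41 on day 4, at 8.85, 8.46 and 8.65 on day 8, and at 10.09, 9.62 and 10.47 on day 15. Each day's arrays lay above those of the day before. The step from day 4 to day 8 was 2.20 ± 0.21 (adjusted p = 7.99e-08, 4.58-fold) and that from day 8 to day 15 was 1.41 ± 0.21 (adjusted p = 5.75e-05, 2.65-fold). The first step, 0.60 ± 0.21, passed narrowly (adjusted p = 0.038) and its call ended in 10 of 23 alternatives, among them the authors' value table (adjusted p = 0.080); over all of them the adjusted p ran from 0.0139 to 0.145. The call also ended without day 0 replicate 1 (0.132) or 3 (0.102), without day 4 replicate 2 (0.145) or 3 (0.0739), and without day 8 replicate 3 (0.05002).

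Krt19, a type I keratin of ducts and trophectoderm, was undetected on day 0 at 4.49, 4.36 and 4.44. On day 4 it lay at 5.22, 4.98 and 5.57, with replicate 3 alone detected. It then reached 8.43, 7.87 and 8.20 on day 8 and 8.95, 8.13 and 8.86 on day 15, so that the arrays of days 8 and 15 overlapped. Krt19 rose 7.51-fold from day 4 to day 8 (2.91 ± 0.22, adjusted p = 3.82e-09) and its day 15 level exceeded that of day 0 at least 10.6-fold. The change of 0.83 ± 0.22 by day 4 was called (adjusted p = 0.00791) but took place around the floor, where the fold is only bounded at 1.01 or more, and it was not called at an offset of 50 (adjusted p = 0.117) or without day 4 replicate 3 (0.0514). From day 8 to day 15 it was not called (0.48 ± 0.22, adjusted p = 0.130), except with the replicate block (0.0313) and without day 15 replicate 2 (0.0159).

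Krt23, a type I keratin, followed the time course of Krt7 without the early signal. It was undetected on all arrays of days 0 and 4, lay at 7.79, 7.67 and 8.18 on day 8, and at 9.56, 9.504 and 9.49 on day 15. It was at least 6.41-fold higher on day 8 than on day 4 (2.89 ± 0.17, adjusted p = 1.95e-10) and rose a further 3.11-fold by day 15 (1.64 ± 0.17, adjusted p = 1.02e-06). The fit also called it higher on day 4 than on day 0 (adjusted p = 0.0217), although neither day was detected, and 5 of 23 alternatives did not; no fold is given. Among those 5, without day 0 replicate 2 the adjusted p was 0.0623 and without day 4 replicate 1 it was 0.112.

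**Figure D2:**
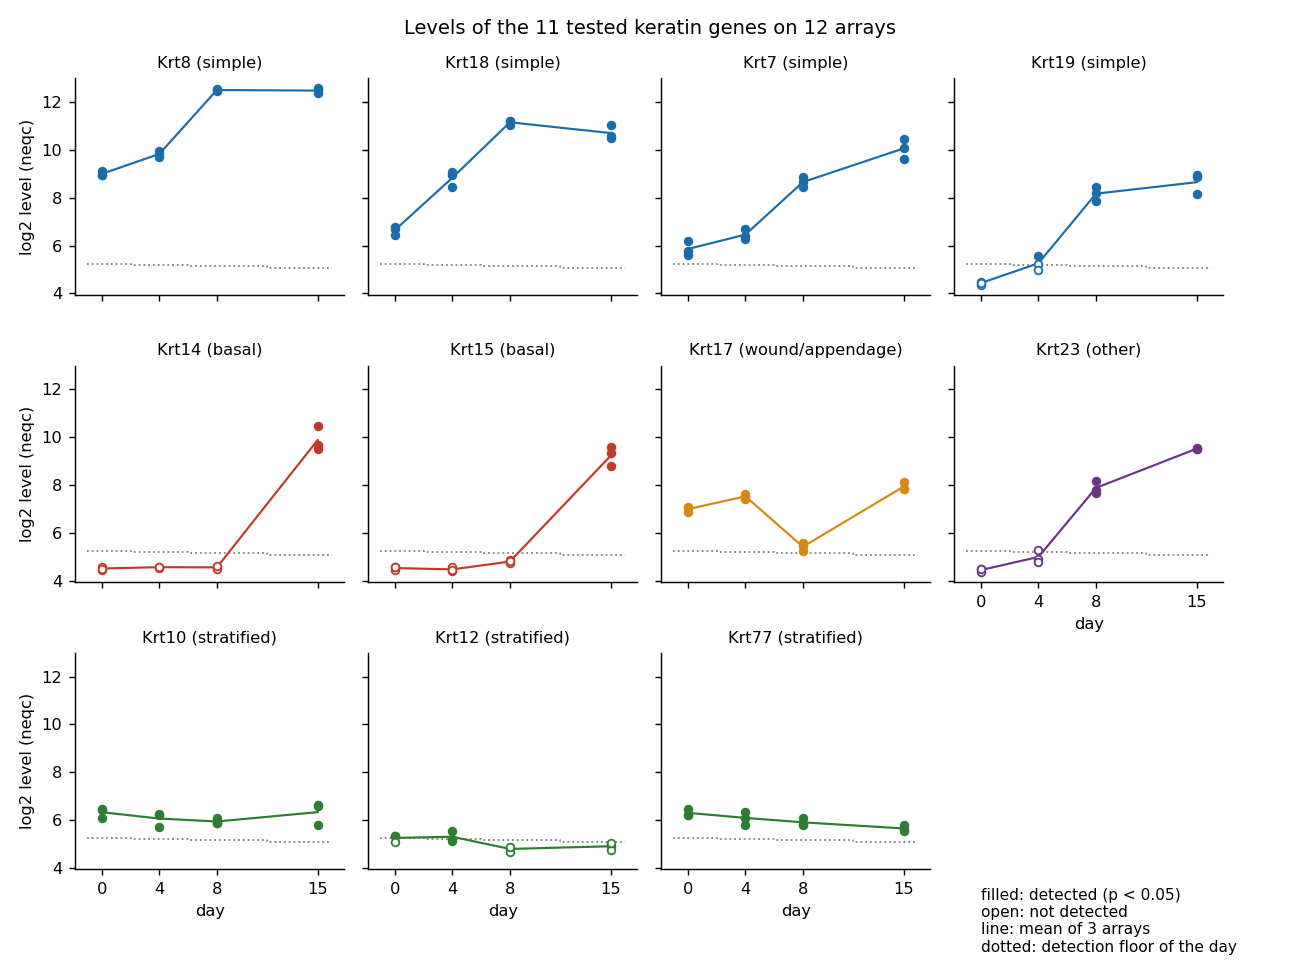
Log2 level (neqc, y axis) against day (x axis) for the 11 tested keratins, 1 panel each, with every array as a point, the mean of 3 arrays as a line and the mean detection floor of each day dotted. Filled points were detected and open points were not; Krt14 and Krt15 leave the floor on day 15 alone, Krt8 and Krt18 climb to day 8, and Krt17 dips on day 8.

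The basal keratins were detected on day 15 alone. Krt14, the type I keratin of basal cells, was undetected on all 9 arrays of days 0, 4 and 8, between 4.45 and 4.60, and lay at 9.67, 9.52 and 10.45 on day 15. Krt15, a type I keratin of basal cells and of hair follicle stem cells, was likewise undetected between 4.40 and 4.86 and then lay at 8.77, 9.32 and 9.58. Neither gene's day 15 arrays overlapped those of any other day. Detection on all 3 day 15 arrays and on 0 of the other 9 was found for 141 of 24613 probes (0.573%). From day 8 to day 15 the fitted change was 5.32 ± 0.19 for Krt14 (adjusted p = 2.26e-12) and 4.42 ± 0.18 for Krt15 (adjusted p = 7.31e-12), at least 26.3-fold and at least 16.7-fold. Both passed the detection filter through day 15 alone, so the filter favours a rise in this step.

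Krt5, the type II partner of Krt14, stayed near the floor. Its probe lay between 4.47 and 4.79 on the 9 earlier arrays and at 5.01, 5.43 and 5.41 on day 15, the latter pair detected. The day 15 arrays were the highest of the 12, but 2 detected arrays left it outside the test. With no detection filter, and 15967 genes tested, the change from day 8 was 0.76 ± 0.10 (adjusted p = 4.51e-05). Krt13, a type I keratin of stratified mucosa, was also outside the test, at 5.46, 5.001 and 5.52 on day 15 with replicate 2 undetected (unfiltered change from day 8 0.74 ± 0.12, adjusted p = 0.000219).

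Krt17, a type I keratin of skin appendages and wound edges, moved against the simple keratins in the middle of the course. It lay at 7.06, 6.87 and 7.04 on day 0, at 7.55, 7.63 and 7.40 on day 4, at 5.25, 5.56 and 5.45 on day 8, and at 7.82, 7.84 and 8.14 on day 15. It was detected on all 12 arrays, and no day's arrays overlapped those of the next. Krt17 rose by 0.54 ± 0.15 (adjusted p = 0.0139), fell by 2.11 ± 0.15 (4.31-fold, adjusted p = 2.94e-09) and rose by 2.52 ± 0.15 (5.73-fold, adjusted p = 1.41e-09) in the 3 steps. The first of these calls was lost when replicate 2 of day 0 was left out (adjusted p = 0.0566) or replicate 2 of day 4 (0.0587), and the adjusted p lay between 0.00805 and 0.0587 in the alternatives. Krt16, its close relative, was detected on 0 of 12 arrays.

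Keratins of the upper layers of stratified epithelia were dim and changed little. Krt10, of the first suprabasal layer of epidermis, was detected on all 12 arrays with day means of 6.33 ± 0.20 (SD, n = 3), 6.07 ± 0.31, 5.94 ± 0.11 and 6.34 ± 0.48. It was called in 0 of the 3 steps (limma; unadjusted p of 0.237, 0.578 and 0.0887) and not by the F-test over the 4 days (adjusted p = 0.248). From day 8 to day 15 its change of 0.39 ± 0.22 (adjusted p = 0.233) was called without day 15 replicate 2 (0.0243), with a range of 0.0243 to 0.703 over all alternatives. Its partner Krt1 was never detected. Krt77, a type II keratin, had day means of 6.31 ± 0.14, 6.09 ± 0.27, 5.91 ± 0.15 and 5.65 ± 0.13. Its change was called for day 15 against day 0 alone (-0.65 ± 0.16, adjusted p = 0.0020).

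Krt12, a keratin of corneal epithelium, was detected on 2 day 0 arrays and 3 day 4 arrays, between 5.14 and 5.55 on these 5 arrays, and on none later. It fell by 0.51 ± 0.15 from day 4 to day 8 (adjusted p = 0.00858), at least 1.11-fold, and this was lost without day 4 replicate 1 (adjusted p = 0.0575). Krt12 passed the detection filter through days 0 and 4 alone, so the filter favours a fall in this step. Its second probe was detected on 2 day 4 arrays and gave day means of 4.90, 5.28, 4.79 and 4.89.

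Counted by step, 6 of the 11 tested keratins rose and 0 fell from day 0 to day 4 (of all genes, 14.7% rose and 12.3% fell, 27% in all). From day 4 to day 8, 5 rose and 2 fell (28.1% and 27% of all genes, 55.1% in all). From day 8 to day 15, 5 rose and 0 fell (12.6% and 9.39%, 22% in all). From day 0 to day 15, 8 rose and 1 fell (31.9% and 35.6%, 67.5% in all). The F-test over the 4 days called 10 of the 11, against 75.2% of all genes. The median log2 change of the tested keratins was 0.54, 0.33 and 0.48 in the 3 steps, and that of all genes -0.04, -0.01 and -0.04. Since Krt14, Krt15, Krt19 and Krt23 entered the test through later days, and Krt12 through days 0 and 4, these counts are open to the filter. The arrays of the earlier and later day did not overlap for 6 of 11 keratins in the first step (38.6% of all genes), 8 in the second (61.5%), 7 in the last (36.3%) and 10 between days 0 and 15 (69.1%). The 6 keratins detected on all 12 arrays (Krt7, Krt8, Krt10, Krt17, Krt18 and Krt77) are not: in the 3 steps 4 rose, then 3 rose and 1 fell, then 2 rose. Of the 7082 genes so detected 14.6%, 27.97% and 10.9% rose and 13.3%, 29.8% and 9.95% fell.

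By class, all 4 tested simple keratins rose in each of the first and second steps (median log2 change 0.83 and 2.50), and 1 of 4, Krt7, rose in the last (median 0.23). Of the basal keratins 0 of 2 were called in the first and second steps (limma; unadjusted p between 0.0779 and 0.965), and both were higher in the last (median 4.87). Of the 3 stratified keratins 0 rose in any step. The classes hold between 2 and 4 tested genes, and the difference between them was not tested.

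**Figure D3:**
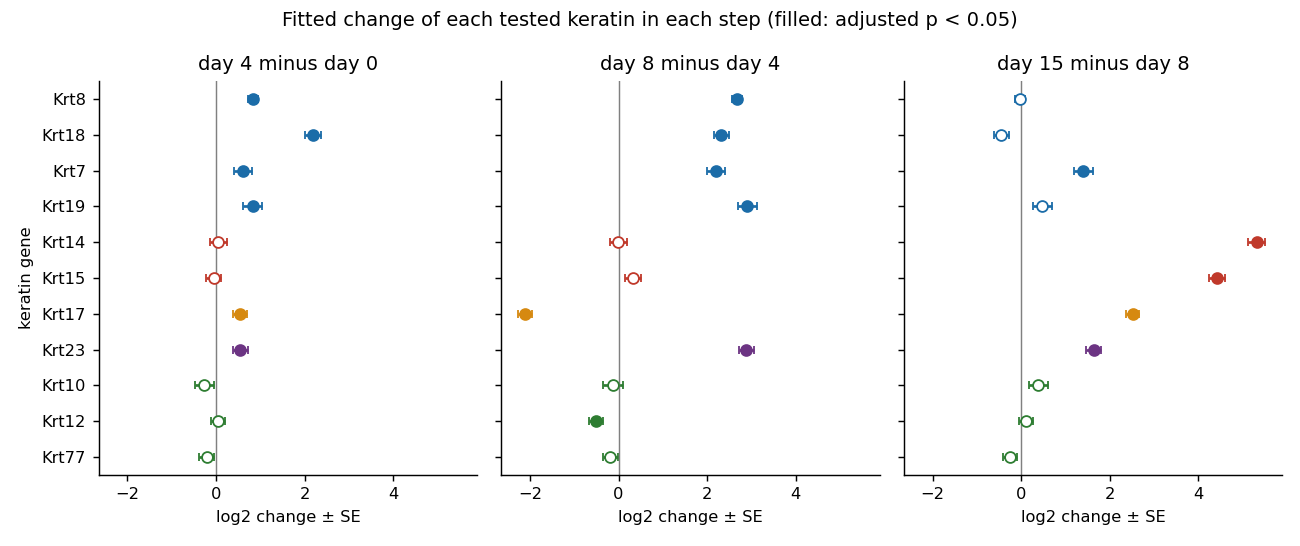
Fitted log2 change with its standard error (x axis) of each tested keratin in each of the 3 steps; filled points passed an adjusted p of 0.05, and colour marks the class (blue simple, red basal, orange wound and appendage, purple Krt23, green stratified). Simple keratins lie right of 0 in the first and second panels, and Krt14 and Krt15 at 5.32 and 4.42 in the third.

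Neighbouring genes did not all share 1 time course, although the adjacent Krt8 and Krt18 both rose in the first and second steps. In the reference gene order the type I genes run Krt13, Krt15, Krt19, Krt9, Krt14, Krt16, Krt17. Within this stretch Krt19 was up from day 8, Krt14 and Krt15 were detected on day 15 alone, Krt17 was lowest on day 8, and Krt9 and Krt16 were never detected. Among type II genes, Krt78 next to Krt8 was undetected on every array while Krt8 was bright, as was Krt80 next to Krt7.

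Other epithelial genes were measured with the same fit, from lists chosen with earlier results of these data known. Among transcription factors of epithelia, 6 of 11 tested rose and 3 fell from day 4 to day 8, the step in which 28.1% of all genes rose and 27% fell. Trp63, the p53 relative that maintains basal cells, was undetected on days 0 and 4, at least 1.98-fold higher on day 8 (1.64 ± 0.22, adjusted p = 7.14e-06), and rose again by day 15 (1.10 ± 0.22, adjusted p = 0.00139). Trp63 passed the detection filter through days 8 and 15 alone, so the filter favours its rise from day 4 to day 8. Its day means were 6.18 ± 0.57 and 7.28 ± 0.30, so that it was detected on all 3 day 8 arrays while Krt14 and Krt15 were on none. Tfap2a, a factor of surface ectoderm, rose 3.27-fold from day 4 to day 8, and Cdx2, a factor of trophectoderm and gut, 3.38-fold. Grhl2, which drives epithelial junction genes, rose by 1.98 ± 0.18 by day 4 and fell by 2.18 ± 0.18 by day 8. Krt17 took the same directions in these steps but not in the last. From day 8 to day 15 Krt17 rose, while Grhl2 was not called (-0.24 ± 0.18, limma adjusted p = 0.401). In the first step 3 of these factors rose and 2 fell (14.7% and 12.3% of all genes), and in the last 3 rose and 1 fell (12.6% and 9.39%).

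Hemidesmosomes anchor basal keratins to the basement membrane. Of 8 tested genes 4 rose and 0 fell from day 8 to day 15 (12.6% and 9.39% of all genes), namely Lamb3 (a laminin chain, 0.86 ± 0.13), Col17a1 (0.72 ± 0.20, detected on 1 day 8 array), Plec (plectin, 0.68 ± 0.13) and Dst (0.55 ± 0.19). Itgb4, the integrin chain that binds plectin, rose by 1.02 ± 0.16 by day 4 and fell by 0.72 ± 0.16 by day 8. In the first step 1 rose and 1 fell (14.7% and 12.3% of all genes), and in the second 2 rose and 2 fell (28.1% and 27%), counts near those shares.

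Desmosomes join keratin filaments of adjacent cells. Of 6 tested genes 1 rose and 3 fell in the first step (14.7% and 12.3% of all genes), and 2 rose and 2 fell in the second (28.1% and 27%). In the last step 1, Perp, rose (1.04 ± 0.21, adjusted p = 0.00115) and 0 fell (12.6% and 9.39%). The stratified desmosome genes Dsg3, Dsc3 and Pkp1 did not pass the detection filter, and Dsp has no probe in the annotation used. Of 10 tested epithelial adhesion genes 6 rose and 2 fell by day 4 (14.7% and 12.3% of all genes), and 5 rose and 1 fell from day 4 to day 8 (28.1% and 27%). In the last step 1 rose and 4 fell (12.6% and 9.39%), while Krt8 and Krt18 were not called. The tight junction genes Cldn7 (-1.81 ± 0.26) and Ocln (-0.96 ± 0.21) and the protease inhibitor gene Spint1 (-1.07 ± 0.22) fell, and Cldn4, another claudin, rose (0.70 ± 0.19).

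Of 6 tested genes of the cornified layer 0 were called from day 8 to day 15 (limma), against 22% of all genes. In that step 1, Sbsn, had an unadjusted p under 0.05 (limma, 0.0141). Ivl, Sprr1a, Sprr1b, Sprr3 and Tgm3 did not pass the filter. From day 4 to day 8, 1 of the 6, Lor (loricrin), rose by 3.04 ± 0.16 and 1, Tgm1, fell (-0.62 ± 0.14). Of all genes 28.1% rose and 27% fell in that step. By day 4, 1 had risen, Lor (0.87 ± 0.16), and 2 had fallen, Tgm1 (-2.29 ± 0.14) and Sfn (-0.69 ± 0.18). Of all genes 14.7% rose and 12.3% fell by then. Among 8 other intermediate filament genes 1 rose and 4 fell in the first step (14.7% and 12.3% of all genes). In the second 1 rose and 4 fell (28.1% and 27%), and in the last 2 rose and 0 fell (12.6% and 9.39%). Vim, the filament of mesenchyme and of stem cells, fell by 0.43 ± 0.15 by day 4. It rose by 1.16 ± 0.15 from day 8 to day 15. From day 4 to day 8 the neuronal filament Nefh (-2.14 ± 0.18), Synm (-1.69 ± 0.17), Lmnb2 (-0.95 ± 0.13) and Lmnb1 (-0.63 ± 0.22) fell. Nefh was detected on days 0 and 4 alone, so the filter favours its fall. Nefm, another neuronal filament, was at least 8.77-fold higher on day 15 than on day 8. It was detected on day 15 alone, so the filter favours this rise.

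**Figure D4:**
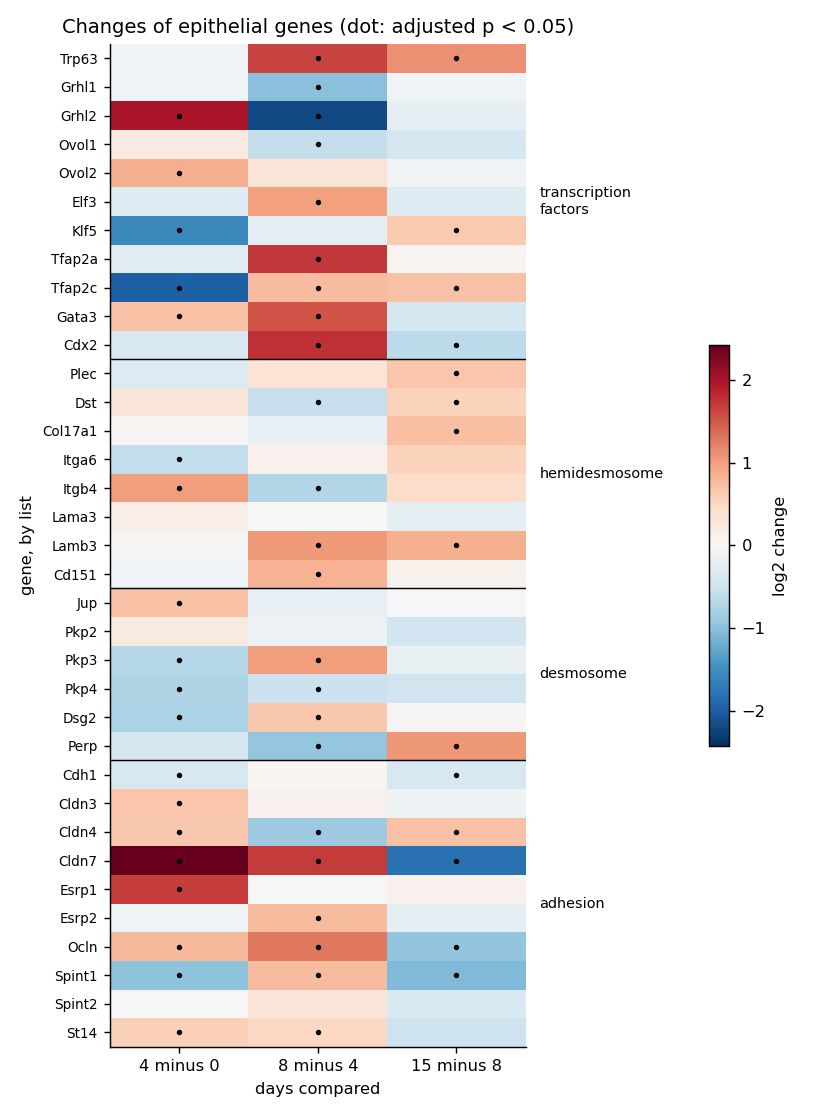
Log2 change (colour, red higher and blue lower on the later day) of the tested epithelial transcription factors, hemidesmosome, desmosome and adhesion genes in each of the 3 steps; dots mark an adjusted p under 0.05. Trp63 has dots and red in the columns of both later steps, 4 hemidesmosome genes are called higher in the third, and Cldn7 turns from red to blue.

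Markers of several cell types moved over the same days, and their part in the keratin changes was not tested. Embryonic stem cell markers (8 of 8) summed to 36494 to 41482 intensity units on day 0 arrays, and to 28214 to 29967, 6669 to 7408 and 9615 to 10649 on those of days 4, 8 and 15. From day 4 to day 8, when the 4 tested simple keratins rose, 7 of these 8 genes were called lower (27% of all genes). The remaining 1, Klf4, was called higher (28.1% of all genes) and led the day 8 sum. From day 8 to day 15, 4 of the 8 were called higher and 0 lower (12.6% and 9.39% of all genes). These were Esrrb (3.14 ± 0.15), Zfp42 (1.39 ± 0.14), Sox2 (1.06 ± 0.17) and Nanog (0.75 ± 0.19). Visceral endoderm markers (6 of 7 with a probe) summed to 3830 to 4432 intensity units on day 0 arrays, and to 7295 to 8664, 39131 to 45397 and 13165 to 16596 on those of days 4, 8 and 15. Parietal endoderm markers (7 of 7) summed to 3146 to 4150, 4658 to 5686, 39201 to 43155 and 42864 to 44417. Both sums were higher on day 8 than on days 0 and 4, as were the 4 tested simple keratins. On day 8 the visceral sum was led by Rhox5 and Ttr (mean log2 levels of 13.99 and 13.91) and the parietal sum by Col4a1 (14.94). From day 8 to day 15 the visceral sum fell and 6 of 6 genes were called lower (9.39% of all genes). Krt8 was not called in this step.

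Trophoblast markers (8 of 10 with a probe) summed to 414 to 459, 368 to 388, 367 to 401 and 1117 to 1456. On day 15 the rise in the sum lay in Prl2a1 and Prl2c2. From day 8 to day 15 these 2 of 4 tested genes were called higher (12.6% of all genes). The other 2, Plac1 (-1.61 ± 0.17) and Cdx2 (-0.63 ± 0.18), were called lower (9.39% of all genes). Prl2a1 was detected on day 15 alone, so the filter favours its rise. Elf5, Hand1, Ascl2 and Tpbpa were detected on 0 of 12 arrays. Surface ectoderm and epidermis markers (6 of 8) summed to 1065 to 1132, 272 to 369, 551 to 703 and 941 to 1128, a sum led by Tfap2c, which stem cells also express. Of these Dsg3 and Pkp1 were undetected on all arrays, and Trp63 and Col17a1 were higher on day 15 than on day 8. Mesothelium markers (4 of 4) summed to 407 to 543, 1414 to 1864, 93.4 to 147 and 165 to 255, and Upk3b was undetected on all arrays. Mesenchyme markers (6 of 6) summed to 6568 to 8440 on day 0 and 9414 to 11642 on day 4, to 7455 to 8538 on day 8 and to 20524 to 24968 on day 15.

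The authors' own value table, which is not background-subtracted, gave the same order of days for the leading keratins. In it Krt8 averaged 9.07 ± 0.07 (SD, n = 3), 9.76 ± 0.11, 12.28 ± 0.03 and 12.23 ± 0.09 at the 4 successive days. Krt18 averaged 7.28 ± 0.13, 8.92 ± 0.26, 10.94 ± 0.08 and 10.56 ± 0.25. Krt14 averaged 5.74 ± 0.11, 5.83 ± 0.02, 5.82 ± 0.09 and 9.83 ± 0.44, and Krt15 5.77 ± 0.11, 5.67 ± 0.16, 6.09 ± 0.06 and 9.26 ± 0.35. The small upward difference of Krt15 on day 8, seen also above, was called in that table (adjusted p = 0.0166) and without background correction (0.0261) but not otherwise, and on both days the probe was undetected. Krt17 averaged 7.54 ± 0.09, 7.90 ± 0.08, 6.49 ± 0.09 and 8.20 ± 0.13, with the same dip.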

How the data were processed

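Total RNA was amplified to biotinylated cRNA and hybridised to Illumina BeadChips, per the labels' protocols. The deposited scanner table gives an intensity per probe, not normalized, and a detection p-value, per the file headers. The authors' deposited value table holds log2 intensities with array medians of 6.27 to 6.30, in the rank order of the scanner table (rank correlation 1); its normalization, scanner software and build are not given in the sources used here. Genes were named from the platform annotation (1 gene for 20984 of 24613 probes), and 41 of 41 keratin symbols are in the RefSeq table. Background correction and quantile normalization of the intensities used neqc (limma 3.58.1, R 4.3.3, offset 16). Probes with a detection p under 0.05 on at least 3 of 12 arrays were kept (13421), the brightest probe standing for its gene (9657 genes). A limma model with 4 day means (8 residual degrees of freedom) gave changes and Benjamini-Hochberg adjusted p-values over all tested genes. The number of arrays limits precision, and no slide is given in the headers. The keratins, classes and lists were chosen with earlier results of these data known. Every keratin passing the filter is named, as are up to 4 called genes per other list and step. Alternatives were the authors' table, another offset, scaling, background, filter and probe choice, a replicate block, fewer arrays, and leaving out each array. Replicate numbers were not taken as pairs in the reported fit, since not every same-numbered pair correlated above 0.1. These correlations were of deviations from the day means. Pairs above 0.1 were still more frequent with the same number (6 of 6, 3 of 6 and 5 of 6 by number) than with different numbers (5 of 36). Variation shared by replicate number was not modelled in the reported fit, and results with a replicate block are given beside it.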

Additional observations from a re-analysis of the deposited data

How the results depend on the processing

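In the 20 to 26 alternatives run for each change, all calls of Krt8 and Krt18 in the first and second steps and of Krt7, Krt17, Krt19 and Krt23 from day 4 to day 8 held, as did those of Krt7, Krt17 and Krt23 from day 8 to day 15; no call of a named keratin reversed. With an offset of 50, 3 keratins were called from day 0 to day 4 in place of 6. Leaving out 1 array at a time gave 4 to 6 called keratins for day 4 against day 0, 6 to 7 for day 8 against day 4, 3 to 6 for day 15 against day 8, 7 to 10 for day 15 against day 0, and 8 to 10 for the F-test; 29 to 30 probes were never detected, and the day 15 minus day 0 difference in detected probes was 4.17 to 5.17. The low counts for day 15 follow from the filter, since Krt14 and Krt15 were detected on 3 arrays and leave the test without 1 of them (3 called without day 15 replicate 3). In an alternative added after seeing the data, each day 15 array was left out with no filter; 8, 8 and 7 keratins were then called from day 8 to day 15 and 11, 11 and 13 from day 0 to day 15, and Krt14 and Krt15 kept adjusted p-values of at most 7.06e-10 and 1.57e-09 for day 15 against day 8 over the 23 alternatives that tested them. With no filter 2 more keratins, Krt5 and Krt13, were called in that step, and Krt24, never detected, from day 4 to day 8. Krt12 was called lower on day 15 than on day 0 in 10 of 25 alternatives (adjusted p = 0.0511 in the reported fit). The replicate numbers share no stated litter or day. Each gene's deviations from its day mean, not the levels themselves, were correlated between arrays of different days. These correlations ran from -0.06 to 0.50 for same-numbered arrays, with 6 of 6 over 0.1 for replicate 1, 3 of 6 for replicate 2 and 5 of 6 for replicate 3. Arrays with different numbers ran from -0.38 to 0.35, with 5 of 36 over 0.1, and 6 of 12 arrays correlated best with their own number on every other day. With the replicate block the called keratins were 6, 7, 7 and 10 for day 4 against day 0, day 8 against day 4, day 15 against day 8 and day 15 against day 0, and 10 for the F-test. No slide was available for a block. Signals near the detection floor limit Krt5, Krt12, Krt13 and the early changes of Krt19 and Krt23.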
